A study of Mus musculus with 3 samples.

Results

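The potassium channel genes are the protein-coding genes of the mouse mm10 assembly whose symbol starts with Kcn, 94 of the 21627 protein-coding genes annotated by RefSeq on the autosomes and the X chromosome. The rule reads the name of the gene and no measured value. FOG2 is the product of Zfpm2, a zinc finger cofactor that binds GATA factors in the developing heart. The DNA bound to it was recovered from ventricles of embryonic mouse hearts, at stage E12.5, counted in days of gestation. There were 2 pulldown libraries, and 1 library of input chromatin served as the control. Per the labels' protocols, all 3 libraries came from Fog2flbio/flbio;Rosa26BirA/BirA embryos. Both copies of the FOG2 gene thus carry a tag that the bacterial ligase BirA, expressed from the Rosa26 locus, biotinylates, and streptavidin beads then capture the protein. The genotype label reads WT and the antibody label of the pulldowns FOG2, which differs from that protocol. About 20 ventricles were pooled per biological replicate. No pulldown from embryos without the tag is among these libraries, so material that streptavidin captures without FOG2 has no control of its own. The authors deposited 1 list of 6166 peaks for the pooled pulldown. No value below therefore has a spread between replicates, and no test between libraries was possible.

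Potassium channels let potassium leave the cell, which ends the action potential and holds the resting potential between beats. Heart muscle uses several kinds in sequence. Voltage-gated channels carry the transient outward and delayed rectifier currents of repolarization. Inward rectifiers hold the resting potential or answer to acetylcholine and to ATP, and tandem pore (K2P) channels carry background currents. Neurons use many of the same families and, in addition, channels that are little known from the heart. The cardiac list below holds 20 genes that carry or assemble a named current of heart muscle, whether or not neurons also use them. The neuronal list holds 30 genes known mainly from neurons, and the other 44 genes are in neither list.

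FOG2 summits, the positions of highest signal within peaks, were given to 22 of the 94 potassium channel genes (23.4%, Wilson 95% interval 16.0 to 32.9). A summit was given to the nearest protein-coding gene body within 100 kb, and under this rule 13.6% of all protein-coding genes had at least 1. The 22 genes held 43 summits. Of the cardiac list, 8 of 20 genes had a summit (40.0%, 21.9 to 61.3), of the neuronal list 6 of 30 (20.0%, 9.51 to 37.3), and of the other genes 8 of 44 (18.2%, 9.51 to 32.0). The intervals of the 3 lists overlap, and the difference between the lists was not tested. Wilson intervals treat genes as independent and equally likely to hold a summit, whereas having a summit went with gene length (below). The list names come from what is known of the genes, and the lists were drawn up with earlier results of these peaks in view. Expression was not measured in these libraries, and a summit near a gene does not show that it acts on that gene. On the same list of peaks, 7 of 8 markers of ventricular muscle had a summit (all but Hey2), and of 8 neuron markers only Tubb3 had one, at 5.04-fold.

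Strength was given by the authors' fold, the pulldown signal at the summit over that of the control with 1 added to both, and by the number of pulldown fragments recovered from the deposited values. Each interval on fragments is an exact 95% Poisson interval and covers counting error only. The strongest summits of the 22 genes ranged from 5.80- to 25.9-fold, with a median of 8.81, beside 6.93 over all genes with a summit. A strongest summit is the highest of all summits of a gene, so it tends to rise with their number. Per summit, the median fold at the members was 6.79, beside 6.38 over all summits given to genes. Kcng2, Kcng1 and Kcnk3 stood highest, at over 20-fold. In 10 genes the strongest summit reached 10-fold, 10.6% of the 94 members against 3.01% of all protein-coding genes. Those 10 were spread over the lists, with 3 cardiac, 3 neuronal and 4 other genes.

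**Figure D1:**
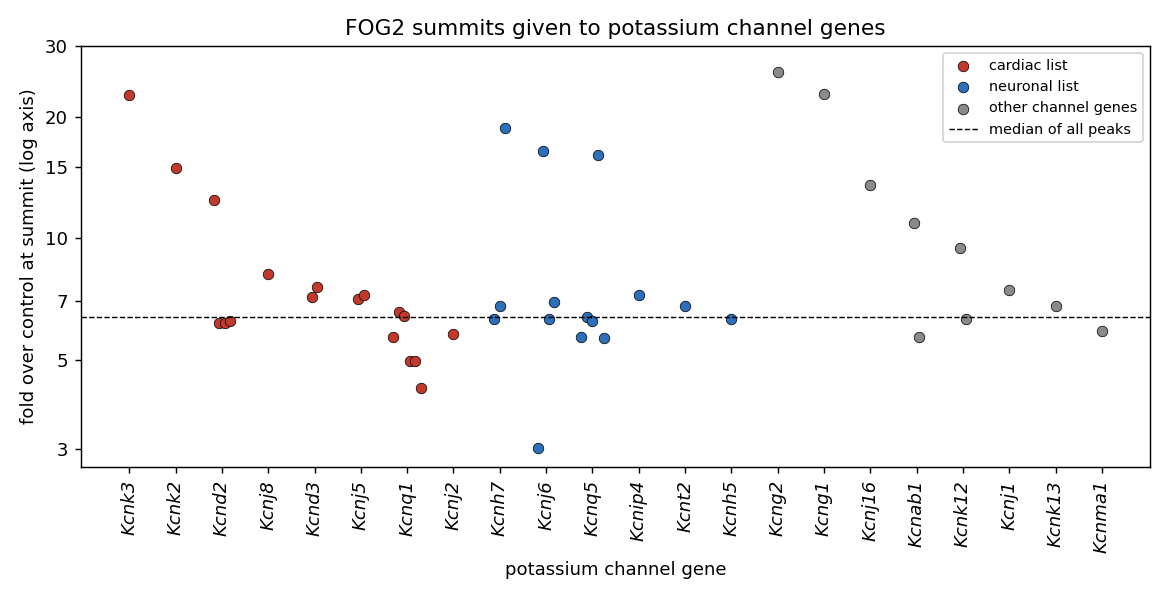
Fold over control (log axis) of each of the 43 summits, by gene and list, with the median of all 6166 peaks (6.39-fold) as a dashed line. No gene had more than 1 summit above 10-fold, and the 6 summits of Kcnq1 all lay at 6.57-fold or below.

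The transient outward current of the heart is carried by channels built from the Kcnd2 and Kcnd3 subunits, and both genes had summits. Kcnd2 (chromosome 6, 21215346 to 21729805) held 4, all inside its body, at 12.4-, 6.17-, 6.17- and 6.22-fold. The strongest spanned 21267807 to 21268379, 52.6 kb from the annotated start, with 23 fragments (14.6 to 34.5). The 3 weaker summits rested on 9 fragments each (4.12 to 17.1). Kcnd3, on chromosome 3, held 2 summits, 24.5 kb apart inside the body. They stood at 7.14-fold with 15 fragments (8.40 to 24.7) and at 7.56-fold with 11 (5.49 to 19.7), so their order was not detectable at this depth. The stronger one spanned 105563159 to 105563620. Kcnip2, whose product KChIP2 is the accessory subunit that brings these channels to the membrane of heart muscle cells, had none, and the nearest summit lay 399 kb away.

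The slow delayed rectifier current is carried by Kcnq1 with its accessory subunit Kcne1. Kcnq1 held 6 summits, the most of any potassium channel gene, all inside its body. Their folds were 5.70, 6.57, 6.40, 4.96, 4.96 and 4.25, from the lower to the higher coordinate. In the same order the peak caller's −log10 q was 4.78, 6.36, 7.77, 4.52, 3.72 and 2.96. Only the summits at 6.57- and 6.40-fold thus reached a −log10 q of 5. The strongest of the 6 by fold ranked 2973 of 6166, just inside the stronger 50% of peaks. The median of all 6166 peaks was 6.39-fold. Fragments ranged from 10 to 16, and the intervals of all 6 overlap. The strongest spanned 143200412 to 143200661 on chromosome 7 with 11 fragments (5.49 to 19.7). The last 4 summits lay within 21.4 kb of each other, and the closest pair was 0.622 kb apart. Kcnq1 is an imprinted gene that contains the noncoding RNA gene Kcnq1ot1, and none of the 6 summits lay inside Kcnq1ot1 (143213111 to 143296547), the nearest being 12.6 kb from it. The stretch of genome nearer to Kcnq1 than to any other gene within 100 kb, its territory, would hold 0.853 summits at the density over all genes. Kcne1 had no summit, with the nearest 69.3 kb away inside Rcan1. Kcnh2 (ERG), which carries the rapid delayed rectifier, and its partner Kcne2 had none either. The nearest to Kcnh2 lay 74.3 kb from it and was given to Nupl2, and the nearest to Kcne2 lay 131 kb away.

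Inward rectifiers had summits in 6 of 15 genes (40.0%), against 13.6% of all protein-coding genes, and 3 of these belong to the cardiac list. Kcnj2, which carries the current that holds the resting potential, had a single summit 67.4 kb outside its body, at 5.80-fold with 9 fragments (4.12 to 17.1), its peak running on chromosome 11 from 111144068 to 111144267. Kcnj12, its partner in that current, had none, and the nearest lay 547 kb away. Kcnj5 encodes a subunit of the acetylcholine-activated channel of atrial and pacemaker cells. It held 1 summit inside its body at 7.22-fold, with 11 fragments (5.49 to 19.7), its peak running on chromosome 9 from 32323876 to 32324054. A second lay 0.501 kb past its 3′ end at 7.08-fold, with 19 fragments (11.4 to 29.7). Kcnj3, the other subunit of that channel, had none, with the nearest 246 kb away. Kcnj8 encodes a pore of ATP-sensitive channels that is best known from blood vessels rather than from heart muscle, and without it 7 of 19 cardiac genes had a summit. Its gene is only 6.78 kb long and contained 1 summit at 8.17-fold with 19 fragments (11.4 to 29.7), its peak running on chromosome 6 from 142567425 to 142567663. Kcnj11, the pore of the ventricular ATP-sensitive channel, had none of its own.

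Both K2P genes of the cardiac list had strong summits, and both summits lay outside the gene. Kcnk3 encodes TASK1, an acid-sensitive background channel known from atrial muscle. Its only summit lay 18.02 kb from the body and reached 22.7-fold on 57 fragments (43.2 to 73.9), its peak running on chromosome 5 from 30569738 to 30570517. It ranked 135 of 6166 and was the strongest of the cardiac list. Kcnk2 encodes TREK1, a channel opened by stretch. Its summit was at 14.9-fold with 23 fragments (14.6 to 34.5), 80.3 kb before its annotated start, its peak running on chromosome 1 from 189482222 to 189482848. That position also lies in the noncoding gene Gm46177. With genes of any biotype competing for summits, neither Kcnk3 nor Kcnk2 kept its summit.

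**Figure D2:**
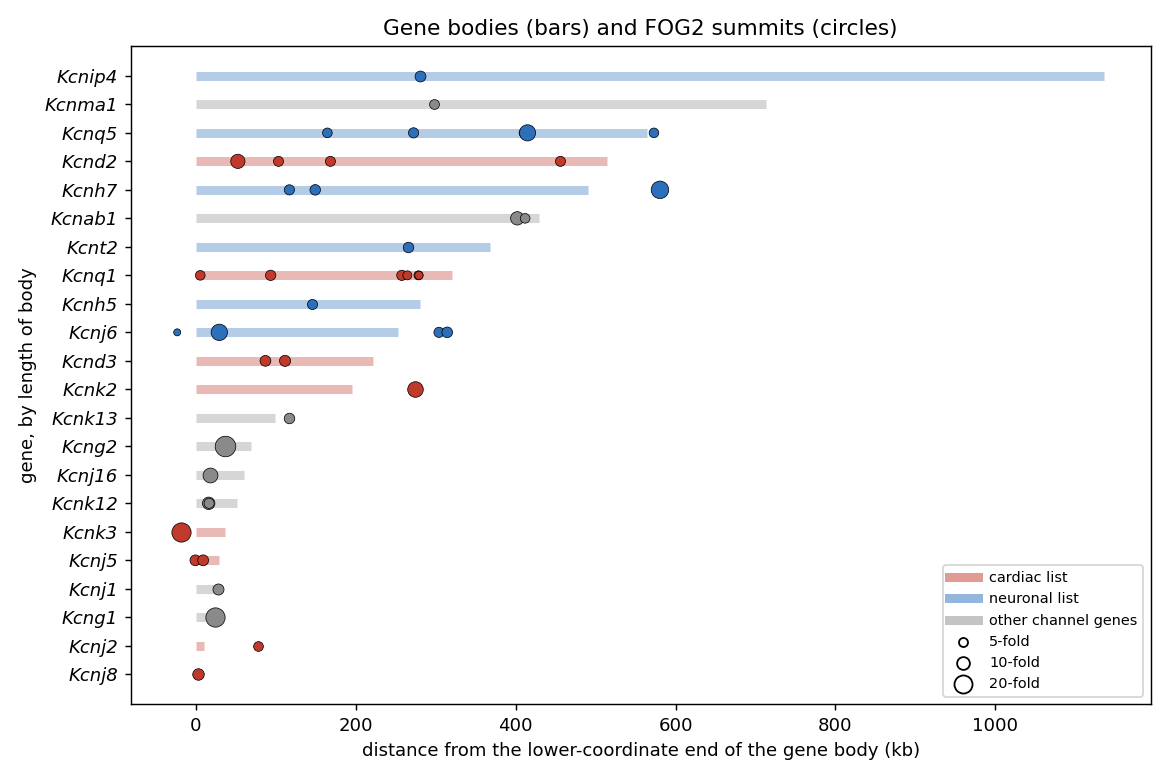
Gene bodies of the 22 genes with a summit (bars, from the lower-coordinate end, in kb) and their summits (circles, area proportional to fold), coloured by list. All 4 summits of Kcnd2 and all 6 of Kcnq1 lie inside the body, and the summits of Kcnk3, Kcnk2 and Kcnj2 lie outside it.

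In the cardiac list, 12 of 20 genes had no summit. Besides those already named they included Kcna4 and Kcna5, which carry slow transient and ultrarapid outward currents, and Kcnn2 and Kcnn3, which encode calcium-activated SK channels. For Kcnn3, Kcnj11, Kcne1 and Kcnh2 a summit lay within 100 kb but nearer to another gene. The nearest to Kcnn3 was 34.8 kb away, given to Pmvk, at 4.97-fold with 7 fragments (2.81 to 14.4). For Kcna4, Kcna5 and Kcnn2 the nearest summit lay 193, 552 and 524 kb away. When every gene within 100 kb of a summit was counted, 13 of the 20 cardiac and 8 of the 30 neuronal genes had one. So did 34 of the 94 potassium channel genes (36.2%), against 33.3% of all protein-coding genes. The share of potassium channel genes was thus near that of all genes under this count. No member without a summit of its own had one within 20 kb of its body. At the 100 kb limit of the rule, the summits given to Kcnh7 (89.7 kb) and Kcnk2 (79.8 kb) were the farthest inside. The nearest summit to Kcnc2 (112.4 kb) fell just outside.

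**Figure D3:**
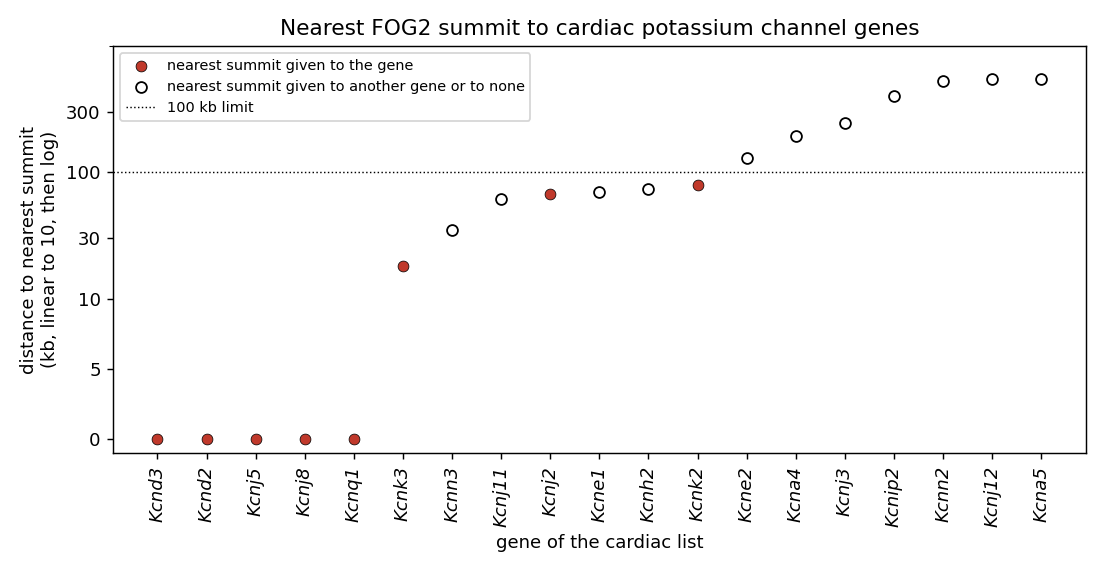
Distance from each of 19 genes of the cardiac list to the nearest summit (kb, linear up to 10 and logarithmic above), filled where that summit was given to the gene. For 5 genes the nearest summit lay inside the body, and for 7 it lay beyond the dotted 100 kb limit.

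Proteins that assemble with these channels, but are not named Kcn, had summits in 4 of 9 genes (44.4%, beside 13.6% of all protein-coding genes). Their territory is large, however, and held 1.76 summits per Mb (exact 95% Poisson interval 0.646 to 3.83), beside 2.49 over all genes. The ATP-sensitive channel needs a sulfonylurea receptor, and the receptor genes lie next to the pore genes. Abcc9, beside Kcnj8, held 1 summit inside its body at 8.57-fold with 18 fragments (10.7 to 28.5), which was 123 kb from the summit in Kcnj8. Abcc8, beside Kcnj11, held 1 at 5.67-fold with 8 fragments (3.45 to 15.8), and this was the summit nearest to Kcnj11, 61.4 kb away. Dpp10, which encodes an accessory protein of the Kcnd channels, held 1 at 6.30-fold with 9 fragments (4.12 to 17.1). Its body spans 1514 kb. Dpp6, of the same kind and 910 kb long, had none, and the nearest lay 1303 kb away. Among the leucine-rich repeat proteins that modulate the BK channel, Lrrc55 had 3 summits, the strongest at 10.7-fold with 16 fragments (9.15 to 25.98), and Lrrc26, Lrrc38 and Lrrc52 had none. Akap9, the scaffold of the Kcnq1 channel, had none.

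Of the neuronal list, the 6 genes with a summit were Kcnq5, Kcnj6, Kcnh7, Kcnh5, Kcnt2 and Kcnip4. All 6 have bodies of over 100 kb, from 253 kb for Kcnj6 to 1136 kb for Kcnip4. Kcnq5, a subunit of the M-current, held 5 summits, at 5.70-, 6.38-, 6.25-, 16.1- and 5.67-fold. The strongest of these, its peak running on chromosome 1 from 21813090 to 21813421, rested on 30 fragments (20.2 to 42.8), and its interval overlaps that of the 6.25-fold summit (6.92 to 22.2) but of no other summit of the gene. Kcnj6, a subunit of the G protein-activated channel of neurons, held 4 summits. One lay inside its body at 16.4-fold with 29 fragments (19.4 to 41.7), its peak running on chromosome 16 from 94774307 to 94774598. Of the other 3, those at 6.30- and 6.93-fold lay 51.5 and 61.8 kb before its start. The last, 23.2 kb past its 3′ end, was at 3.01-fold, the lowest of all 6166 peaks, and lay nearly as close to Dyrk1a (26.3 kb).

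Kcnh7, a gene of the ERG family, held 3 summits. Those inside its body stood at 6.32- and 6.79-fold, with 13 fragments (6.92 to 22.2) and 10 (4.80 to 18.4). The strongest was at 18.8-fold with 52 fragments (38.8 to 68.2), its peak running on chromosome 2 from 63273735 to 63274357, and lay 89.7 kb before the start of the gene. Kcnh5, Kcnt2 and Kcnip4 had 1 summit each inside the body, of 9, 10 and 15 fragments. The summit of Kcnip4, which encodes an accessory subunit of the KChIP family, was at 7.22-fold, its peak running on chromosome 5 from 48669126 to 48669624. Its territory would hold 3.08 summits at the density over all genes. That of Kcnh5, an EAG family gene, was at 6.30-fold, its peak running on chromosome 12 from 75043051 to 75043220, and that of Kcnt2, which encodes a sodium-activated channel, at 6.79-fold, its peak running on chromosome 1 from 140510532 to 140510735. The neuronal genes of largest territory without a summit were Kcnb2, Kcnip1, Kcnq3 and Kcnh1. Their territories would hold 1.44, 1.04, 0.875 and 0.865 summits, and the nearest summits lay 508, 44.1, 273 and 208 kb away.

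Among the other 44 genes, the potassium channel summits of highest fold were at Kcng2 and Kcng1, which encode electrically silent subunits that modify other voltage-gated channels. Kcng2 held 1 summit inside its body at 25.9-fold with 73 fragments (57.2 to 91.8), its peak running on chromosome 18 from 80331139 to 80331801, ranking 89 of 6166. Kcng1 had 1 summit 2.64 kb outside its body at 22.8-fold with 43 fragments (31.1 to 57.9), its peak running on chromosome 2 from 168284035 to 168284338. The fold at Kcng1 was barely above that at the cardiac Kcnk3 (22.7), which rested on more fragments, 57 against 43, with overlapping intervals. The fragment intervals of Kcng2 and Kcng1 overlap only at the edge, and both lie above those of the single summits of Kcnj1, Kcnk13 and Kcnma1. The interval of the single summit of Kcnj16 (19.4 to 41.7) lies below that of Kcng2 but overlaps that of Kcng1. The other 8 silent subunit genes had none.

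Kcnj16, an inward rectifier gene beside Kcnj2, held 1 summit inside its body at 13.5-fold with 29 fragments (19.4 to 41.7), its peak running on chromosome 11 from 110986007 to 110986332. It lay 79.9 kb from the body of Kcnj2. Kcnab1, an accessory subunit gene of voltage-gated channels, held 2 inside its body, at 10.9-fold with 17 fragments (9.90 to 27.2), its peak running on chromosome 3 from 65351189 to 65351644, and at 5.70-fold with 10 (4.80 to 18.4). Kcnk12, a K2P gene, held 2 inside its body only 0.548 kb apart, the stronger at 9.45-fold with 14 fragments (7.65 to 23.5), its peak running on chromosome 17 from 87761835 to 87762320. Kcnj1, a renal channel gene, had 1 at 7.45-fold with 12 fragments (6.20 to 21.0), 1.61 kb past its 3′ end at 32400702 to 32400899 on chromosome 9. This summit and those of the neighbouring Kcnj5 formed a run of 3 on that chromosome. Kcnk13, another K2P gene, had 1 at 6.79-fold with 10 fragments (4.80 to 18.4), 17.2 kb past its 3′ end, its peak running on chromosome 12 from 100079787 to 100080032. Kcnma1, the pore of the BK channel, has a body of 713 kb and held 1 at 5.90-fold with 11 fragments (5.49 to 19.7), its peak running on chromosome 14 from 23590165 to 23590337. Its territory would hold 2.19.

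By family, voltage-gated channels of the Kcna to Kcnd stems had summits in 2 of 17 genes, both Kcnd. None of the 8 Kcna genes, which encode Shaker-type channels, had one. The Kcnh genes counted 2 of 8 and the Kcnq genes 2 of 5. K2P genes counted 4 of 14, silent subunits 2 of 10, and calcium- or sodium-activated channels 2 of 8. Accessory subunits counted 2 of 16, beside 13.6% of all protein-coding genes.

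Having a summit went with gene length. Potassium channel genes with a summit had a median body of 208 kb and those without one of 23.3 kb, and over all protein-coding genes these medians were 74.3 and 14.8 kb. Of the 23 members over 100 kb long, 12 had a summit (52.2%), beside 50.0% of all genes of that length. Of the 71 shorter members, 10 had one (14.1%), beside 8.98% of all shorter genes. Within these, members under 20 kb counted 2 of 36, beside 5.18% of all genes of that length, and members of 20 to 100 kb counted 8 of 35, beside 14.8%. A strongest summit of at least 10-fold was found in 6 of the 23 long members (26.1%), beside 13.4% of all long genes, and in 4 of the 71 shorter ones (5.63%), beside 1.70%. In the neuronal list the genes with a summit were 6 of the 12 over 100 kb and 0 of the 18 shorter ones. In the cardiac list they were 4 of 7 and 4 of 13, the shorter ones being Kcnj2, Kcnj5, Kcnj8 and Kcnk3. The other genes counted 2 of 4 and 6 of 40. Without Kcnj8 the shorter cardiac genes counted 3 of 12. The neuronal count among long genes was thus equal to the share of all long genes. By density the cardiac value was the higher in both length classes, with overlapping intervals and no test. Over 100 kb the cardiac list held 4.49 summits per Mb of territory (2.39 to 7.67) and the neuronal list 2.46 (1.38 to 4.07), beside 3.02 over all genes of that length. Kcnq1 alone gave 6 of the 13 summits behind this cardiac value, from 342 kb of the 2.9 Mb of territory. The density of the class was not calculated without Kcnq1. A higher cardiac density among long genes is therefore not shown apart from this gene. Up to 100 kb the cardiac list held 4.13 (1.34 to 9.64), beside 2.1 over all genes of that length. The division at 100 kb joined the 2 lower of 3 preset length classes after the values were seen.

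**Figure D4:**
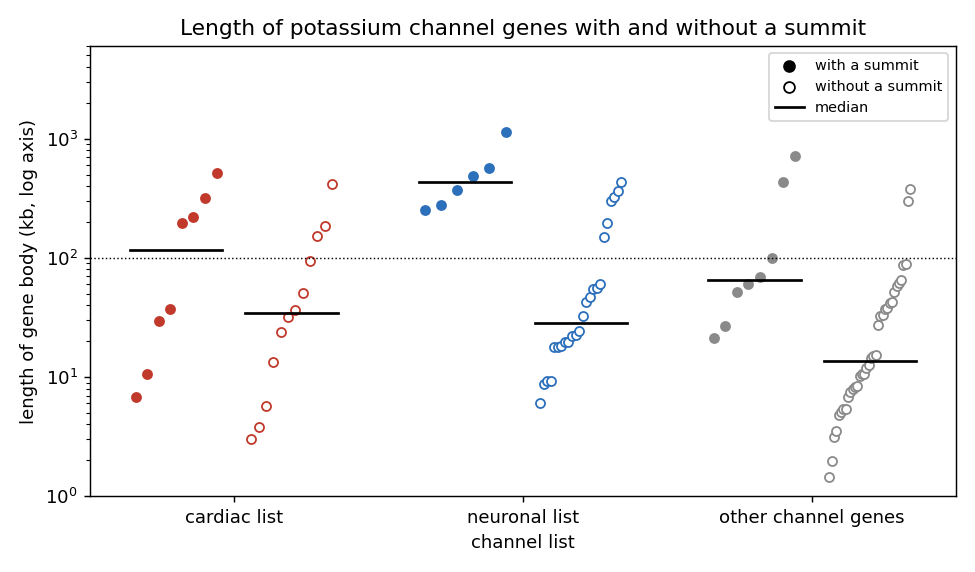
Length of the gene body (kb, log axis) of all 94 potassium channel genes, by list, with and without a summit; black lines are medians and the dotted line is at 100 kb. All 6 neuronal genes with a summit lie above the dotted line, and 4 of the 8 cardiac ones lie below it.

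**Figure D5:**
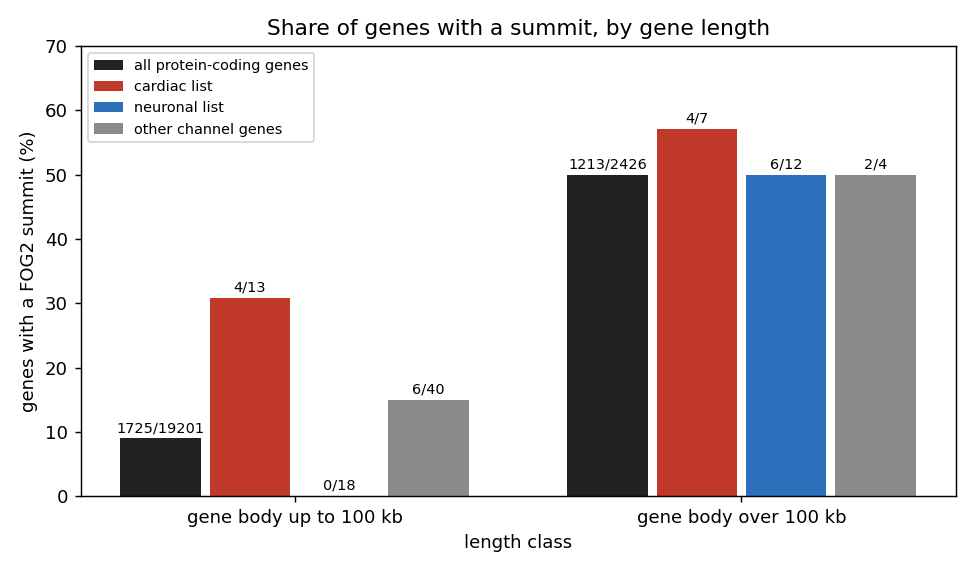
Percentage of genes with a summit, by length class and list, with the counts above the bars. Among genes of up to 100 kb the cardiac list had 4 of 13 and the neuronal list 0 of 18, beside 8.98% of all genes.

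The number of summits per territory took size into account directly. The territory of the 94 genes was 16.8 Mb and held 2.55 summits per Mb (exact 95% Poisson interval 1.85 to 3.44, counting error only). The value over all protein-coding genes was 2.49 (2.42 to 2.57). The higher share of potassium channel genes with a summit was therefore not matched by a higher density. The cardiac list held 18 summits in 4.11 Mb, or 4.38 per Mb (2.60 to 6.92), and its interval lay above the value over all genes. Without Kcnq1, which alone gave 6 of the 18, it held 3.19 per Mb (1.65 to 5.57), and the interval included it. Without Kcnj8 it held 4.18 (2.44 to 6.70), and the interval again included that value. The neuronal list held 15 in 7.38 Mb, or 2.03 per Mb (1.14 to 3.35), and the other genes 1.87 (0.897 to 3.44). The cardiac and neuronal intervals overlap. Among genes of up to 100 kb, the neuronal list held 0 in 1.29 Mb, which allows up to 2.86 per Mb, above the 2.1 of all genes of that length. A lower density than that of all such genes was therefore not detectable there. Inward rectifiers held 6.05 per Mb (2.90 to 11.1) and Kcnq genes 7.27 (3.63 to 13.0), the latter from Kcnq1 and Kcnq5 alone. Kcnj6 gave 4 of the 10 inward rectifier summits. Accessory subunits held 0.896 (0.185 to 2.62) and calcium- or sodium-activated channels 0.831 (0.101 to 3.0). K2P genes held 3.24 (1.05 to 7.55), Kcna to Kcnd genes 1.99 (0.732 to 4.34), Kcnh genes 1.87 (0.509 to 4.79) and silent subunits 1.8 (0.218 to 6.5). Summits lie close together, so they are not independent counts and these intervals are too narrow. All deposited peaks were counted here, and densities were not calculated for stricter peaks.

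Several summits were given to 9 of the 94 genes (9.57%), beside 4.31% of all protein-coding genes with 2 or more. Kcnq1, Kcnq5, Kcnd2 and Kcnj6 had 4 or more, which 0.892% of all genes had. Of the 43 summits, 31 (72.1%) lay inside the body of the gene they were given to, beside 60.4% over all genes. Another summit lay within 10 kb of 12 of them (27.9%), beside 18.1% over all genes. Without Kcnq1, 67.6% of the remaining 37 summits lay inside the body, and 8 of the 37 (21.6%) had another within 10 kb. Starts were listed for 18 of the 22 genes in the RefSeq promoter table (GRCm38.p6), covering 34 summits. No start was listed for Kcng1, Kcng2, Kcnk3 and Kcnq1. The summits of Kcng1, Kcng2 and Kcnk3 were the strongest of all members, and Kcnq1 had the most. None of the 34 summits lay within 1 kb of a listed start of its gene. The nearest of them was 4.04 kb from the start of Kcnj8, and their median distance was 96.6 kb. The Kcng1 summit lay 2.64 kb from an end of its body, and whether that end is the start was not listed. No peak overlapped any of the 94 promoter windows listed for 69 of the potassium channel genes, each from 250 bases before to 50 after a start. Over all genes, 138 of 32851 such windows were overlapped (0.42%). Of the 12 summits outside a body, 5 lay before the start, 5 past the 3′ end, and 2, at Kcnk3 and Kcng1, by genes whose strand was not listed.

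At this depth few of these summits could be ranked against each other. The median summit of the 43 rested on 11 fragments, beside 12 over all peaks, and was 241 bp wide, beside 251. Of the 43, 10 reached 10-fold (23.3%), beside 16.3% of all summits given to genes. The count of members, 22 with all deposited peaks, was 19 to 22 with stricter peaks. A −log10 q of 5 or more left 21 members with a summit, beside 10.0% of all genes, a fold of at least 5 left 22, beside 11.8%, and the stronger 50% of peaks left 19, beside 8.01%. Tighter rules of distance lowered it to between 16 and 20. Within 20 kb of a body 20 members had a summit, beside 10.9% of all genes, within 10 kb 18, beside 10.0%, and by overlap of the peak with the body 16, beside 8.43%. With genes of any biotype competing, 18 members had a summit, beside 10.5%, and by nearest gene end also 18, beside 13.0%. The members lost in one or more of these settings were Kcnh5, Kcnip4, Kcnt2, Kcnj1, Kcnj2, Kcnk2, Kcnk3, Kcnk13, Kcng1 and Kcnma1, and the other 12 kept a summit in all 8.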

How the data were processed

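FOG2 chromatin from E12.5 mouse heart ventricles (2 pulldown libraries, 1 input library, grouped by the labels) was analysed from 1 list of 6166 peaks that the authors deposited for the pooled pulldown. The submitters' processing notes name Bowtie2 2.3.2, SAMtools 1.5, Picard, MACS2 2.1.1 and mm10, and their settings were not given in the sources used here. Per the labels' protocols, chromatin was fixed in 1% formaldehyde for 10 minutes and sheared to 300 to 800 bp. Per the deposited file's name, blacklisted regions had been removed. Each deposited peak carries a fold, which is a linear ratio of pulldown over control at its summit, with 1 added to both sides as the recovered fragments show. The deposited −log10 p and −log10 q were also set by the peak caller, and the deposited display score was not used.

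The nearest gene body within 100 kb, among 21627 protein-coding genes of RefSeq (GRCm38.p6), received each summit. A summit tied between genes, as 22 of all summits were, counted for each, and no potassium channel gene was concerned. Territory was measured on a 1 kb grid. Fragments were solved from the fold and −log10 p with a Poisson tail. A whole number matched within 0.001 in 100% of peaks, and 83 peaks, none at a potassium channel gene, allowed a second one. Scripts (Python 3.11.15, scipy 1.17.1) were tested on simulated data. No test was run, since the list holds no replicates. Counts are set beside all genes. Genes were named by rule: every member with a summit, all cardiac list and partner genes, the 4 neuronal genes of largest territory without one, and any member without a summit but with one within 20 kb. Some genes under this rule are not reported here. Members and lists were chosen with earlier results of these data known. The alternatives tried were stricter peaks, other distances, gene ends, genes of any biotype, any gene within 100 kb, interval overlap and, added after the values were seen, leaving out Kcnq1 and leaving out Kcnj8. Sequences of peaks were not used here.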

Additional observations from a re-analysis of the deposited data

How the results depend on the processing

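No paired analysis was possible because the peaks were called on the pooled libraries, and for the same reason no library could be left out. Counting every gene within 100 kb of a summit gave 34 potassium channel genes with a summit (36.2%, beside 33.3% of all genes). Of these, 13 were cardiac and 8 neuronal. Of the pairs of summit and gene, 49.2% lay inside the body, and 12 genes were gained and none lost. The cardiac count was 5 within 10 kb of a gene body and also 5 by overlap of the peak with the body, because the summits of Kcnj2, Kcnk2 and Kcnk3 lie outside; the neuronal count was 6 in both. By nearest gene end the neuronal count was 3 (without Kcnh5, Kcnip4 and Kcnt2) and the cardiac count 8. In the stronger 50% of peaks by fold, 24 summits and 2 partner genes were left. The share of summits inside the body was 88.6% within 10 kb, 83.8% within 20 kb and 88.6% with genes of any biotype, where distant summits go to no gene or to another. The number of potassium channel genes with a summit stayed between 16 and 22 in the other alternatives, and their median strongest fold between 7.82 and 10.9 in all of them. The precision of each fold is limited by the fragments at its summit.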
